A study of Homo sapiens with 9 samples.

Results

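Histone deacetylases were followed in HT29 cells, human colon cancer cells, after exposure to coffee or to one of its phenolic acids. The zinc-dependent enzymes covered were HDAC1, HDAC2, HDAC3, HDAC4, HDAC5, HDAC6, HDAC7, HDAC8, HDAC9 and HDAC11, and its members were all probe sets annotated to exactly 1 of these symbols. That gave 24 probe sets for 10 genes, of 54613 probe sets that were not array controls and 19775 genes with a probe set of their own. HDAC9 had 5 probe sets, HDAC4, HDAC6 and HDAC8 had 3 each, HDAC2, HDAC5, HDAC7 and HDAC11 had 2 each, and HDAC1 and HDAC3 had 1 each. These 10 genes are not the whole family, and HDAC6 alone stands for class IIb.

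In the ICC group cells received instant caffeinated coffee at 7 µg/mL, in the CA group caffeic acid at 1.68 µg/mL, both during 24 h, and the Control group received neither. Each group had 3 Affymetrix HG-U133 Plus 2.0 arrays, 9 in all, numbered as replicates 1 to 3. No label ties a replicate to a culture of its own, so the p-values speak for the spread of these arrays alone, and that spread may be technical. The concentrations are described as not cytotoxic, and those of ICC and CA differ.

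Histone deacetylases remove acetyl groups from lysines of histones and other proteins, which generally makes chromatin less open to transcription. Class I enzymes (HDAC1, HDAC2, HDAC3 and HDAC8) are mostly nuclear, and HDAC1, HDAC2 and HDAC3 work inside corepressor complexes. Class IIa enzymes (HDAC4, HDAC5, HDAC7 and HDAC9) have little catalytic activity of their own, bind MEF2 transcription factors and leave the nucleus when kinases create docking sites for 14-3-3 proteins. HDAC6, of class IIb, is cytoplasmic and deacetylates tubulin, and HDAC11 alone forms class IV. In the gut, butyrate made by bacteria is the best known natural inhibitor of these enzymes, and colon cancer lines answer it with growth arrest and differentiation.

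The arrays carried the profile of colon epithelium. All 10 epithelial markers, among them EPCAM, CDH1 and KRT20, lay above the median probe set, at 5.49 log2, and 7 lay above the upper quartile, at 7.61. CDX1 at 7.15, CEACAM5 at 6.20 and CDX2 at 5.93 lay below that quartile. None of the 3 measured leukocyte markers lay above that median, and of the 7 fibroblast and endothelial markers 2 did, COL1A1 at 7.24 and PECAM1 at 6.12. The summed intensity of those 7 was 328 to 379 in ICC, 313 to 330 in CA and 300 to 321 in Control. The ICC arrays thus lay above the controls, and the part of this in the results was not tested. The same sum over the 3 leukocyte markers was 89.7 to 99.8 in ICC, 82.9 to 101 in CA and 84.5 to 96.1 in Control. The correlation between any pair of arrays over all probe sets was between 0.993 and 0.998.

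The promoters of HDAC8, HDAC4 and HDAC9 are shown because these 3 genes had the probe sets that lay apart from Control in both treatments. RefSeq windows of build GRCh38.p14 run from 250 bases before to 50 bases after a transcription start, and 9 of the 10 genes had one; for HDAC4 and HDAC9, with 5 windows each, the outermost is given. Capitals mark matches on either strand to the GC box GGGCGG, the CCAAT box CCAAT, the cAMP response element core TGACG, the E box CACGTG and the MEF2 consensus.
HDAC8, chrX:72572794-72573093, minus strand: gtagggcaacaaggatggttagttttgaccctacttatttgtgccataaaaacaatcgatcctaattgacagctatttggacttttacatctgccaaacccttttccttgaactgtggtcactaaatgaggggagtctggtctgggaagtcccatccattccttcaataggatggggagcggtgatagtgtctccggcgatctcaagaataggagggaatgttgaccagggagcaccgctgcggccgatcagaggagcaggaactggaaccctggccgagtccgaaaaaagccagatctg
HDAC4, chr2:239401600-239401899, minus strand: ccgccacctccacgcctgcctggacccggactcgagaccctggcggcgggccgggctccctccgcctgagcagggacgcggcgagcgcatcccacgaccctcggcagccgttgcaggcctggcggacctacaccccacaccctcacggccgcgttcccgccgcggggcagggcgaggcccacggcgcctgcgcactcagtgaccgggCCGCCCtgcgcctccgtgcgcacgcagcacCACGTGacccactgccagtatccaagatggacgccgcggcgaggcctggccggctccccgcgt
HDAC9, chr7:18086575-18086874, plus strand: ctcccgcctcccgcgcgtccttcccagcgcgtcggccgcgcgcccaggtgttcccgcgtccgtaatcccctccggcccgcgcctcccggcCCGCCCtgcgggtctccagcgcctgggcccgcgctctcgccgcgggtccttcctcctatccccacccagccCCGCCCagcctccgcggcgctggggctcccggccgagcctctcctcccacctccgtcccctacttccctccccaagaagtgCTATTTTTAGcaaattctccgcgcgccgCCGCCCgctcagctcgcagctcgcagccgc

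The genes lie at chrX:72329516-72572843 (HDAC8), chr2:239048168-239401649 (HDAC4) and chr7:18086825-19002416 (HDAC9) in the same build. Their windows differ in composition. That of HDAC8 was 49.3% G and C with 9 CpG, and held none of the 5 motifs, while that of HDAC4 was 76.3% G and C with 40 CpG, and that of HDAC9 held 41 CpG. The median over all RefSeq windows was 58.7% G and C. HDAC4 held 1 GC box and 1 E box, and HDAC9 held 3 GC boxes and 1 match to the MEF2 consensus, CTATTTTTAG, at positions -8 to 1 counted from the start site as 0. No matches of different motifs overlapped. A GC box occurred in 6 of the 9 family windows and in 45.0% of 35116 windows of all genes, an E box in 1 of 9 and in 7.26%, and a MEF2 match in 1 of 9 and in 2.99%. The CCAAT box and the cAMP element core each occurred in 1 of 9, and in 34.6% and 24.6% of all windows. The family was counted by 1 window per gene and the background by every distinct window, several for some genes, so the shares have unlike units. These matches describe letters only and were not tied to a response here.

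ICC was set against Control to see whether the whole beverage shifts the expression of these enzymes. No histone deacetylase probe set passed limma at an adjusted p under 0.05, with adjusted p between 0.541 and 0.994, and over all probe sets 0 passed (0%). The members farthest from Control were HDAC8 223345_at at -0.28 log2, HDAC9 234393_at at +0.28 and HDAC9 230968_at at -0.27, and all 3 probe sets of HDAC4 lay below 0. The 2 HDAC9 probe sets lay below the median of the array, and with an offset of 16 on the linear scale they stood at 0.12 and -0.15. At an unadjusted p under 0.05 there were 7 of the 24 members, 3 higher and 4 lower, or 29.2%. Of all probe sets 8.23% met the same limit, 4.79% higher and 3.43% lower. The 7 were HDAC4 204225_at and 228813_at, HDAC6 206846_s_at, HDAC8 223345_at, and HDAC9 1552758_at, 234393_at and 230968_at. HDAC9 thus counted more than once, by dim probe sets of opposite sign. By the brightest probe set of each gene 3 of 10 genes met the limit, beside 7.52% of all genes. The members were chosen with earlier results of these data known. The count of 7 was 3 without Control replicate 1 or 3, beside 6.78% and 7.00% of all probe sets. It was 4 without ICC replicate 3 or CA replicate 3, beside 7.97% and 8.28%. With the replicate number as a block 0 members passed (0.00366% of all probe sets did), and 7 had an unadjusted p under 0.05, beside 12.8% of all. The members' median difference was +0.05 log2 with 13 above 0 and 11 below, against a median of +0.01 and 54.9% above 0 over all probe sets.

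CA was set against Control to see whether the single compound does the same. No member passed, with adjusted p between 0.986 and 1.00, and over all probe sets 0 passed as well (0%). Without adjustment 3 of the 24 members had a p under 0.05, 1 higher and 2 lower, or 12.5%, beside 4.68% of all probe sets, 2.18% higher and 2.49% lower. With the block the count was again 3, beside 8.22%. The 3 were probe sets of HDAC8, HDAC4 and HDAC9, and each was among the 7 of the ICC comparison. The median difference was -0.04 log2, with 8 members above 0 and 16 below (without CA replicate 3 it was 0.0020), and over all probe sets it was -0.00 with 48.0% above 0. The 2 comparisons share their controls, so that a common direction in both is partly built in.

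**Figure D1:**
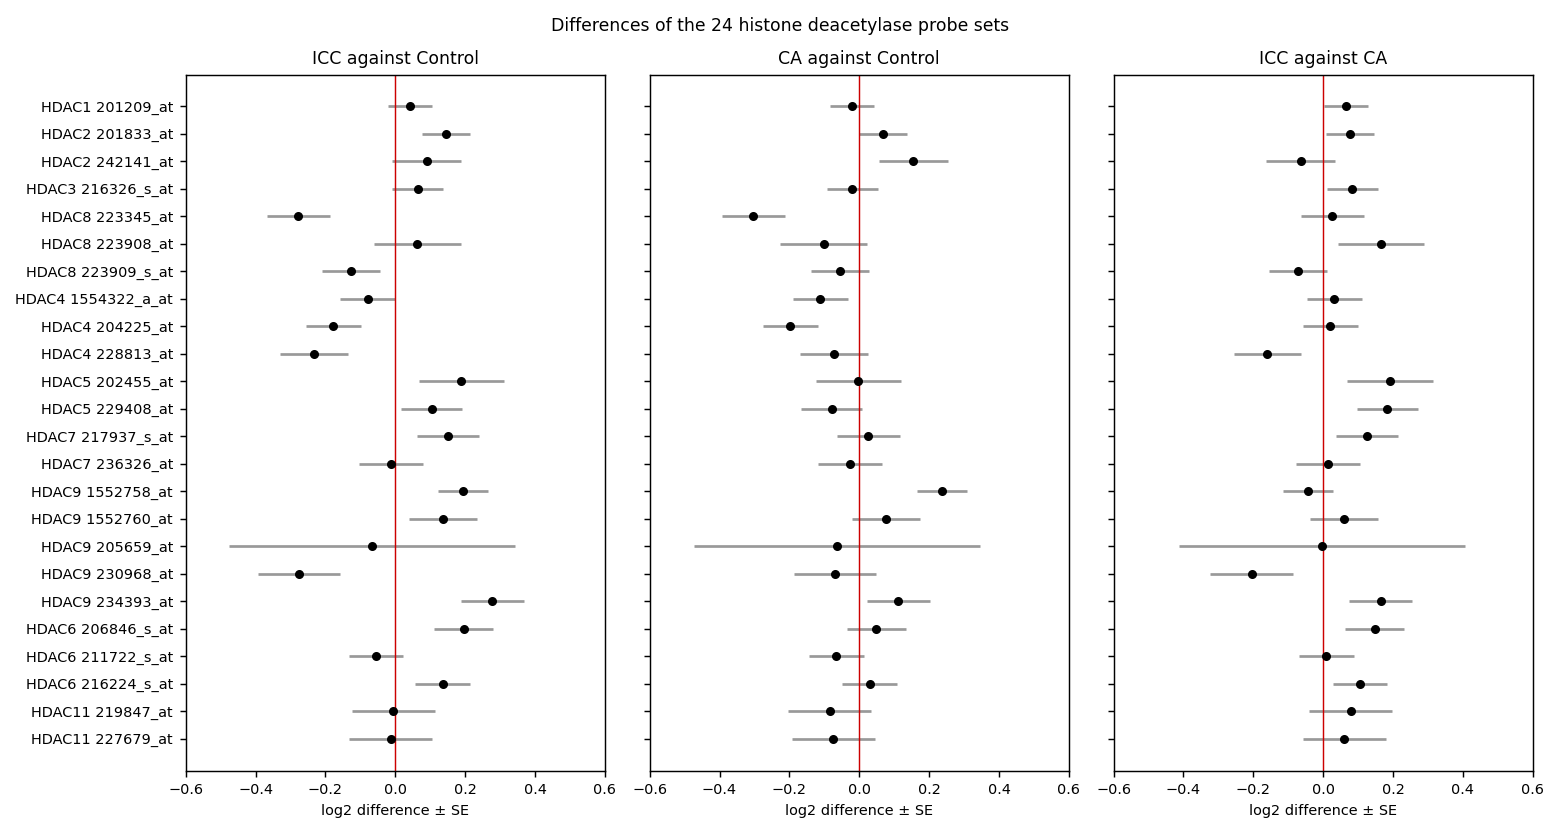
Log2 differences with their SE (horizontal axis) for the 24 histone deacetylase probe sets in each treatment against Control and in ICC against CA. HDAC8 223345_at lay at -0.28 and -0.30 against Control, and the wide bars of HDAC9 205659_at stand for an SE of 0.41.

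Among the class I enzymes HDAC8, which deacetylates the cohesin subunit SMC3, stood lower in both treatments by its brightest probe set. Its 223345_at measured 7.46, 7.48 and 7.32 log2 in ICC, 7.53, 7.26 and 7.39 in CA, and 7.70, 7.59 and 7.80 in Control. Every treated array lay below every control array. The difference was -0.28 ± 0.09 log2 in ICC (SE, n = 3 arrays in each group, 1.21-fold, limma adjusted p 0.547) and -0.30 ± 0.09 in CA (1.23-fold, adjusted p 0.986). Because the arrays lay apart, it was lower in 3 of 3 same-numbered pairs in each treatment, which adds no support. The pairs differed by 0.11 to 0.48 in ICC and by 0.17 to 0.41 in CA. By unadjusted p it ranked 1176 of all 54613 probe sets in ICC and 283 in CA.

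The other 2 probe sets of HDAC8 did not follow it closely. Probe set 223909_s_at measured 7.32, 7.32 and 7.10 in ICC, 7.27, 7.28 and 7.42 in CA, and 7.44, 7.34 and 7.35 in Control, which put the ICC arrays below the controls and left CA overlapping them. Its differences were -0.13 ± 0.08 in ICC and -0.05 ± 0.08 in CA. Probe set 223908_at overlapped Control in both treatments, at +0.06 ± 0.12 in ICC and -0.10 ± 0.12 in CA. Over the 9 arrays 223345_at correlated with these at 0.52 and 0.15, and they correlated with each other at -0.43.

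**Figure D2:**
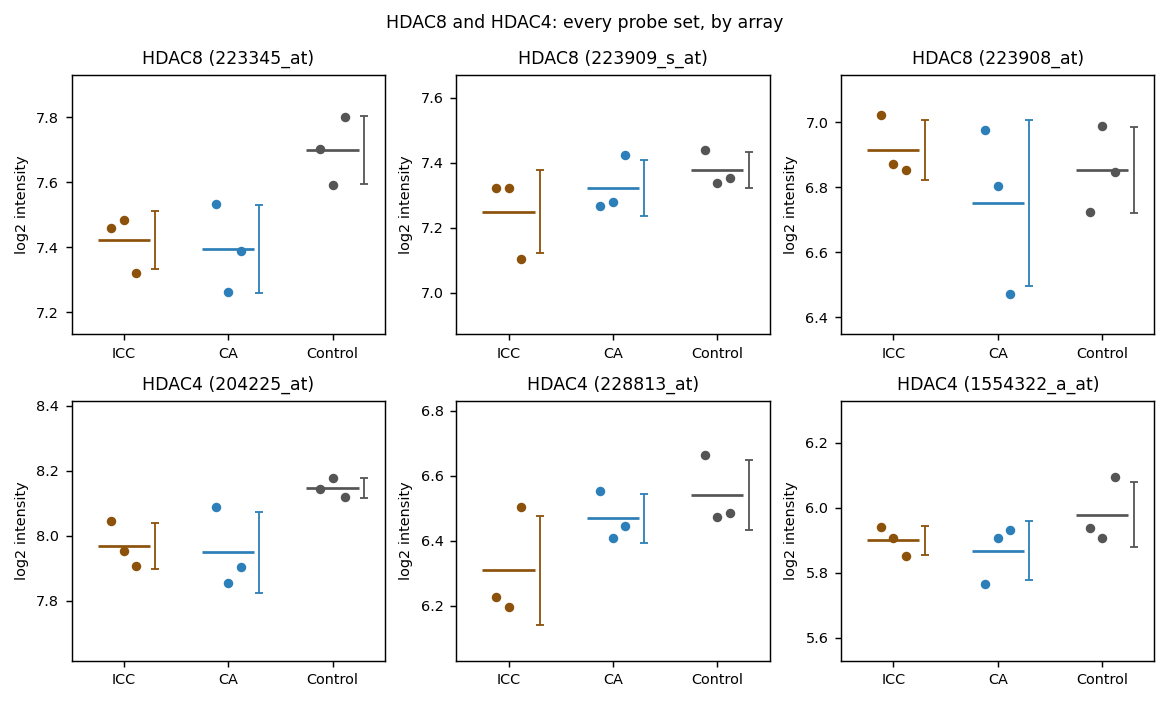
Log2 intensity (vertical axis) of the 3 probe sets of HDAC8 and the 3 of HDAC4 on each array of ICC, CA and Control, with group means as lines and SD as bars. In HDAC8 223345_at and HDAC4 204225_at the treated arrays lay below all 3 controls, and in the other probe sets at least 1 treated group overlapped them.

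HDAC1 and HDAC2 are the paired catalytic subunits of the NuRD, Sin3 and CoREST complexes. HDAC1 lay close to Control. It measured 12.14, 12.03 and 12.06 log2 in ICC, 12.02, 12.03 and 11.99 in CA, and 12.03, 12.03 and 12.05 in Control. The 9 values spanned 0.15 log2, the narrowest range of the 24 members. The differences were +0.04 in ICC, with a 95% interval of -0.10 to 0.18, and -0.02 in CA, with one of -0.16 to 0.12. The CA arrays lay just under the controls and the ICC arrays above the CA arrays, by +0.06 ± 0.06 on average.

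HDAC2 stood somewhat higher. Its 201833_at measured 10.97, 10.82 and 10.93 in ICC, 10.84, 10.87 and 10.78 in CA, and 10.73, 10.75 and 10.81 in Control, so that the ICC arrays lay above the controls and the CA arrays overlapped them. The difference was +0.14 ± 0.07 in ICC (1.11-fold, adjusted p 0.618) and +0.07 ± 0.07 in CA. The second probe set, 242141_at, stood at +0.09 ± 0.10 in ICC and +0.15 ± 0.10 in CA. HDAC3, the enzyme of the NCoR and SMRT complexes, averaged 9.22 ± 0.05 in ICC, 9.14 ± 0.06 in CA and 9.16 ± 0.09 in Control (SD, n = 3 each), and the groups overlapped.

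Of the class IIa enzymes HDAC4 had all 3 probe sets below Control in both treatments. The brightest, 204225_at, measured 8.05, 7.95 and 7.91 log2 in ICC, 8.09, 7.85 and 7.90 in CA, and 8.15, 8.18 and 8.12 in Control. All 6 treated arrays lay below the controls, by -0.18 ± 0.08 in ICC (1.13-fold, adjusted p 0.602) and -0.20 ± 0.08 in CA (1.15-fold, adjusted p 0.986). Probe set 228813_at stood at -0.23 ± 0.10 in ICC, where replicate 3, at 6.50, lay among the controls and the other two arrays, at 6.23 and 6.20, below them. In CA it stood at -0.07 ± 0.10. Probe set 1554322_a_at stood at -0.08 ± 0.08 in ICC and -0.11 ± 0.08 in CA, and its 3 arrays numbered 2 had 1 common value of 5.91. The pairwise correlations between the 3 probe sets lay between -0.11 and 0.38.

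HDAC5 and HDAC7, close relatives of HDAC4, lay above Control in ICC by both probe sets of HDAC5 and by 1 of the 2 of HDAC7. HDAC5 202455_at measured 7.15, 6.85 and 6.96 in ICC, 6.83, 6.85 and 6.70 in CA, and 7.04, 6.80 and 6.55 in Control. Its ICC arrays overlapped the controls, whose SD was 0.24, and the difference was +0.19 ± 0.12 in ICC and -0.00 ± 0.12 in CA. The second probe set of HDAC5, 229408_at, stood at +0.10 ± 0.09 in ICC and -0.08 ± 0.09 in CA. HDAC7 217937_s_at averaged 7.64 ± 0.15 in ICC, 7.52 ± 0.10 in CA and 7.49 ± 0.04 in Control (SD, n = 3 each), with ICC replicate 3 the highest at 7.82. The other HDAC7 probe set, 236326_at, lay below the lower quartile of the array, at 4.05 on average, and stood at -0.01 in ICC and -0.03 in CA.

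HDAC9, whose short isoform lacks the catalytic domain and still represses MEF2, was measured by 5 probe sets that disagreed. The brightest, 205659_at, measured 7.39, 6.68 and 6.49 in ICC, 7.51, 7.04 and 6.03 in CA, and 7.62, 6.92 and 6.23 in Control. In every group replicate 1 was the highest array and replicate 3 the lowest, and the groups overlapped throughout. The replicate number held 92.2% of the variation of this probe set between arrays, and the treatment group 0.333%. The means by number were 7.51, 6.88 and 6.25, a range of 1.26 log2, and 68 of the 54613 probe sets had a larger one. The next largest range by number among the members was 0.27. The treatment differences were -0.07 ± 0.41 in ICC and -0.06 ± 0.41 in CA. With the replicate number as a block in the model the SE was 0.13 and the adjusted p 0.860 in ICC and 0.938 in CA. What the replicate number stands for is not given in the sources used here.

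**Figure D3:**
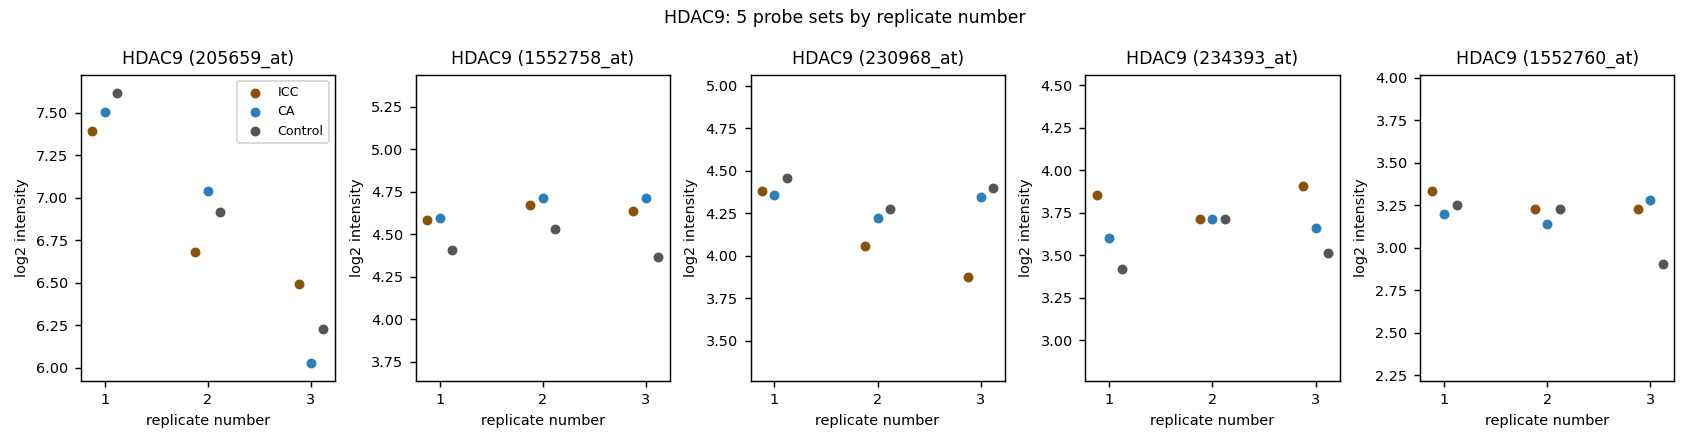
Log2 intensity (vertical axis, the same span of 1.8 log2 in each panel) of the 5 HDAC9 probe sets by replicate number (horizontal axis), with 1 point per array of ICC, CA and Control. Probe set 205659_at separates the numbers in every group, and 1552758_at separates the treated arrays from Control at each number.

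The other HDAC9 probe sets were dim. Probe set 1552758_at, between the lower quartile and the median of the array, measured 4.58, 4.67 and 4.64 in ICC, 4.60, 4.71 and 4.71 in CA, and 4.41, 4.53 and 4.37 in Control. Every treated array lay above every control array, by +0.19 ± 0.07 in ICC (1.14-fold, adjusted p 0.557) and +0.24 ± 0.07 in CA (1.18-fold, adjusted p 0.986). With the offset of 16 these were 0.11 and 0.14. Probe set 234393_at, below the lower quartile, stood at +0.28 ± 0.09 in ICC and +0.11 ± 0.09 in CA, and its 3 arrays numbered 2 had the same value of 3.72. In the opposite direction 230968_at stood at -0.27 ± 0.12 in ICC, with its arrays at 4.38, 4.05 and 3.87 in ICC against 4.46, 4.28 and 4.40 in Control. Without 1 array that difference ran from -0.41, without ICC replicate 1, to -0.16, without ICC replicate 3. Over the 9 arrays 230968_at and 234393_at correlated at -0.68. The dimmest, 1552760_at at 3.20 on average, stood at +0.14 ± 0.10 in ICC and +0.08 ± 0.10 in CA.

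HDAC6, the tubulin deacetylase, stood higher in ICC by its brighter probe sets. Probe set 206846_s_at measured 8.65, 8.53 and 8.80 in ICC, 8.46, 8.54 and 8.55 in CA, and 8.39, 8.56 and 8.45 in Control. ICC replicates 1 and 3 lay above all controls and ICC replicate 2 among them. The difference was +0.20 ± 0.08 in ICC (1.15-fold, adjusted p 0.587) and +0.05 ± 0.08 in CA. Probe set 216224_s_at stood at +0.14 ± 0.08 in ICC and +0.03 ± 0.08 in CA, and the 2 correlated at 0.61. The third, 211722_s_at, lay below the median of the array and stood at -0.06 ± 0.08 in ICC and -0.07 ± 0.08 in CA.

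HDAC11, a deacylase that removes fatty acyl groups from lysine, was level. Its 219847_at averaged 7.35 ± 0.05 in ICC, 7.27 ± 0.25 in CA and 7.36 ± 0.13 in Control (SD, n = 3 each), with CA replicate 2 the lowest array at 6.99. The differences were -0.01 in ICC, with a 95% interval of -0.27 to 0.26, and -0.08 in CA, with one of -0.35 to 0.18. The second probe set stood at -0.01 and -0.07.

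**Figure D4:**
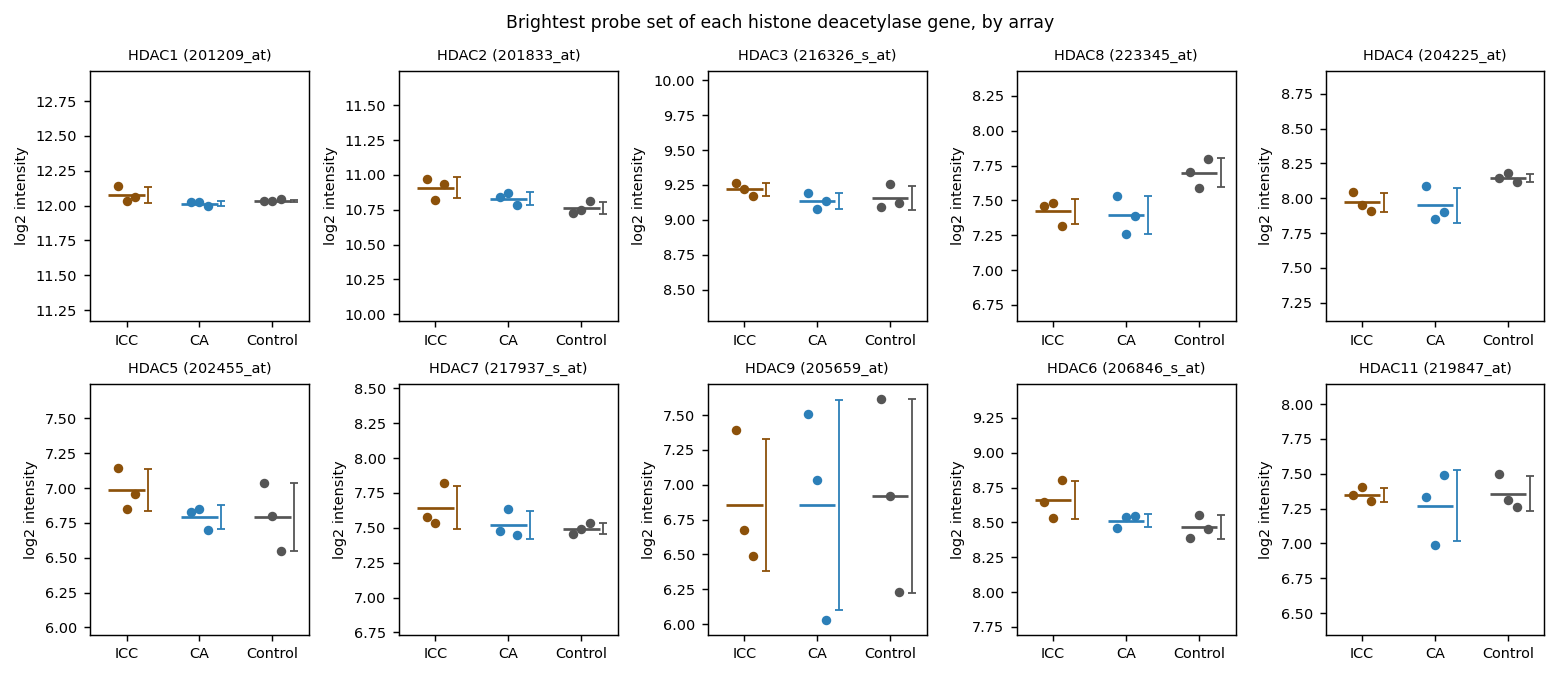
Log2 intensity (vertical axis, the same span of 1.8 log2 in each panel) of the brightest probe set of each gene on the arrays of ICC, CA and Control, with group means as lines and SD as bars. HDAC8 and HDAC4 have all treated arrays below Control, and HDAC9 has the widest spread within each group.

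The treatments were compared directly as ICC against CA, which were given at different concentrations. No member passed, with every adjusted p at 1.00 (0% of all probe sets), and 0 of the 24 had an unadjusted p under 0.05, where 2.65% of all probe sets did, 1.78% higher and 0.87% lower. With the block the count was again 0, beside 5.51%. The median difference was +0.06 log2 with 18 members above 0 and 6 below, and over all probe sets it was +0.02 with 57.7% above 0. HDAC8 223345_at differed by +0.03, with a 95% interval of -0.18 to 0.23, and HDAC4 204225_at by +0.02, with one of -0.15 to 0.20. The members farthest apart were HDAC9 230968_at at -0.21 ± 0.12, HDAC5 202455_at at +0.19 ± 0.12 and HDAC5 229408_at at +0.18 ± 0.09. In the last the ICC arrays, at 6.16, 6.03 and 6.04, lay above the CA arrays, at 5.77, 5.95 and 5.96.

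Counted by whether the 3 arrays of each group lay apart, 5 of the 24 members did so in ICC against Control, beside 11.8% of all probe sets, 7.08% higher and 4.75% lower. They were HDAC2 201833_at and HDAC9 1552758_at, higher, and HDAC4 204225_at with 2 probe sets of HDAC8, lower. In CA against Control 4 did, beside 7.85% of all, 3.79% higher and 4.06% lower, namely HDAC9 1552758_at, higher, and HDAC1, HDAC4 204225_at and HDAC8 223345_at, lower. The 3 that lay apart in the same direction in both were set beside 3.82% of all probe sets. In ICC against CA 2 did, HDAC1 and HDAC5 229408_at, both higher, beside 5.89% of all, 3.78% higher and 2.11% lower. An exact permutation test of 3 arrays against 3 cannot give a p under 0.1.

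By class the pattern was mixed. In ICC 5 of 7 class I probe sets lay above Control, 6 of 12 of class IIa, 2 of 3 of HDAC6 and 0 of 2 of HDAC11. In CA these were 2 of 7, 4 of 12, 2 of 3 and 0 of 2. All probe sets of a gene lay on the same side of Control in both treatments only for HDAC2, HDAC4 and HDAC11 among the 8 genes with several. The median range over the 9 arrays was 0.40 log2 for the members and 0.38 for all probe sets, and the median SD within groups was 0.11 and 0.12.

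The genes whose 9 values followed a member most closely were taken for the 3 genes whose brightest probe set had the widest range between group means. Some dimmer probe sets, among them 3 of HDAC9, had wider ranges than those of HDAC4 and HDAC6. For HDAC8 these were MDGA1, KRT10-AS1 and CINP, with Pearson correlations of 0.95, 0.94 and 0.94. For HDAC4 they were SSC4D, SAMM50 and MICB, at 0.95, 0.95 and 0.94. For HDAC6 they were GOLGA6L2, EIF3B and LMNB2, at 0.97, 0.97 and 0.94. They are the highest of 19765 genes over 9 arrays that share their processing, and describe likeness only.

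The partners of the class I enzymes were described from a list of 31 corepressor subunits, 28 of them measured here, by the brightest probe set of each gene. In ICC 0 passed, and 4 had an unadjusted p under 0.05, 1 higher and 3 lower, with a median of +0.04 log2 beside +0.03 over all genes, of which 7.52% had such a p. The 3 with the smallest p were the NuRD subunit MTA2 at -0.45 ± 0.10, the histone chaperone RBBP4 at -0.31 ± 0.07 and MBD3, a methyl-CpG-binding domain protein of NuRD, at +0.26 ± 0.07. In CA, where 4.38% of all genes had such a p, 0 passed and 2 had one, MTA2 at -0.37 ± 0.10 and RBBP4 at -0.16 ± 0.07. In all 5 of these differences the arrays lay apart from Control, as in 11.8% of all probe sets in ICC and 7.85% in CA. These genes were picked by their small p, so that lying apart adds no support.

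Class IIa enzymes are held in the cytoplasm by 14-3-3 proteins, and 19 of 19 listed partners and kinases were measured. None passed in either treatment. In ICC 3 had an unadjusted p under 0.05, 1 higher and 2 lower, beside 7.52% of all genes. They were 14-3-3 genes, and the other listed 14-3-3 genes, YWHAB, YWHAG and YWHAQ, had no such p. YWHAZ averaged 12.25 ± 0.04 log2 in ICC and 12.51 ± 0.04 in Control (SD, n = 3 each), a difference of -0.26 ± 0.06 (SE, 1.20-fold, adjusted p 0.441) with the arrays apart. YWHAH stood at -0.23 ± 0.08 and YWHAE at +0.34 ± 0.13, both overlapping Control. In CA 0 had such a p, beside 4.38% of all genes, with YWHAZ at -0.14 ± 0.06.

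Enzymes that add or remove acetyl groups by other routes, and proteins that read them, gave no call either. Of 7 sirtuins, deacetylases that depend on NAD, 0 passed, and SIRT3, of the mitochondria, was the 1 with an unadjusted p under 0.05 in ICC, at +0.18 ± 0.07, with +0.08 ± 0.07 in CA. Of 12 measured acetyltransferases and 7 bromodomain readers 0 passed and 0 had such a p in either treatment. EP300, the coactivator p300, stood at +0.27 ± 0.14 in ICC and +0.20 ± 0.14 in CA, and BRD3 at +0.25 ± 0.13 in ICC.

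Genes that histone deacetylase inhibitors are known to raise were described as a downstream group, with 5 of 6 measured. None passed or had an unadjusted p under 0.05 in ICC or CA, with medians of +0.04 and -0.03 log2. CDKN1A, the cell cycle inhibitor p21, stood at +0.06 ± 0.56 in ICC and -0.03 ± 0.56 in CA. Its means by replicate number spanned 1.48 log2. Its means by number were 9.57, 9.68 and 8.21 log2, those of TXNIP 10.93, 11.50 and 10.35, and those of KLF4 9.50, 9.90 and 8.80. ALPI, an intestinal alkaline phosphatase, had means of 4.70, 4.70 and 4.53, and GSN, the actin-severing protein gelsolin, had 9.04, 9.02 and 9.29. The arrays numbered 3 had the lowest mean in CDKN1A, TXNIP, KLF4 and ALPI, and the highest in GSN. HDAC9 205659_at was also lowest there, but from number 1 to 2 it fell, from 7.51 to 6.88, where CDKN1A, TXNIP and KLF4 rose. The share of all genes with their lowest mean at number 3 is not given here. Over all probe sets the number held a median of 30.0% of the variation. Over the 9 arrays HDAC9 205659_at correlated with CDKN1A at 0.82, with KLF4 at 0.63, with ALPI at 0.62, with TXNIP at 0.53 and with GSN at -0.51. These correlations rest on the same 9 arrays and their numbering.

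**Figure D5:**
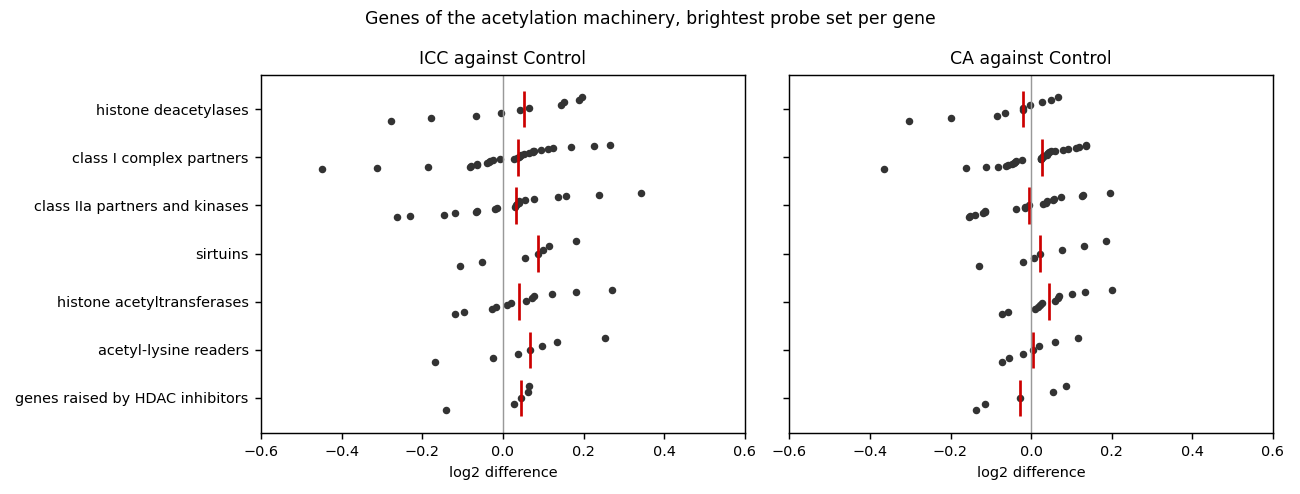
Log2 differences (horizontal axis) of the brightest probe set of each gene in ICC against Control and CA against Control, 1 point per gene, for the histone deacetylases and 6 related lists, with medians as red lines. The lists centre near 0, and the lowest point in each panel is MTA2, at -0.45 in ICC and -0.37 in CA.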

How the data were processed

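Total RNA of 9 HT29 samples was labelled with biotin and hybridised to Affymetrix arrays, per the labels' protocols. The authors deposited RMA intensities, per the submitters' processing notes, and analysed the samples in GeneSpring GX, per the series' design; the sources used here give no version or setting of either. The deposited intensities are linear, with array medians from 43.8 to 46.6, so log2 was taken here. Of 54675 probe sets 62 were controls and were left out.

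All 54613 remaining probe sets were fitted with limma 3.58.1 (R 4.3.3) in 1 model of the 3 groups. P-values were adjusted by Benjamini and Hochberg over all of them, and the threshold was an adjusted p of 0.05. Each SE comes from limma's moderated variance, and probe sets took their genes from GEO's platform annotation. The fit was checked on simulated data with independent arrays, which held no effect of the replicate number. The number of arrays limits the precision. Exactly equal values on different arrays occurred in 11 of the 24 members and in 54.0% of all probe sets.

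After group means were removed, same-numbered arrays of different groups correlated at 0.271 to 0.478 in all 9 pairs and others at -0.407 to 0.0770, so the numbers were taken to pair the arrays, and the number was added as a block in a further fit. Alternatives were other scalings, filters, probe set choices, weights, an offset of 16 on the linear scale and each array left out. All member genes are named; of other lists at most 3 genes by smallest p per comparison, apart from TXNIP, named after its values were seen. The account of HDAC9 by replicate number was also chosen after its values were seen. Members and lists were chosen with earlier results of these data known. Figures were drawn with matplotlib 3.10.9.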

Additional observations from a re-analysis of the deposited data

How the results depend on the processing

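Under the 10 alternatives that kept all arrays and the 9 that left 1 out, 0 histone deacetylase probe sets passed in any comparison, and the smallest adjusted p was 0.261 with the replicate block and 0.414 otherwise. The replicate block changed no call, and with it 7, 3 and 0 members had an unadjusted p under 0.05 in ICC and CA against Control and in ICC against CA, as without it. In ICC against Control that count was 3 without dim probe sets, where fewer members were tested, beside 8.62% of the probe sets then tested. It was 3 of 10 members with 1 brightest probe set per gene, beside 7.73%. It was 4 with a trended variance prior, beside 8.17%, and 4 with only the 2 groups compared, beside 7.45%. The cause of these last 2 counts was not tested. In ICC against CA the count was 1 with array weights, beside 3.02%. With 1 array left out it lay between 3 and 6 in ICC against Control, beside 5.75% to 8.75% of all probe sets. It was 3 there without Control replicate 1 or 3, and 4 without CA replicate 3 or ICC replicate 3. In CA the count lay between 2 and 3, beside 3.87% to 6.04%. In ICC against CA it lay between 0 and 1, beside 1.99% to 4.10%. The median difference lay between 0.010 and 0.077, between -0.055 and 0.0020, and between 0.027 and 0.087, with 0.010 in ICC without ICC replicate 1 and 0.0020 in CA without CA replicate 3. HDAC8 223345_at kept its sign throughout, from -0.33 to -0.23 in ICC and from -0.37 to -0.24 in CA without 1 array. HDAC9 205659_at ran from -0.41 to 0.28 in ICC. Of 72 differences 8 took another sign in an alternative that kept all arrays, none larger than 0.064 log2. With 1 array left out 23 of the 72 did, none larger than 0.102 in the fit of all arrays.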
